A study of Mus musculus with 24 samples.

Results

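The genes described here are 10 genes of DNA replication and cell proliferation: Mcm2, Mcm3, Mcm4, Mcm5, Mcm6, Mcm7, Pcna, Mki67, Top2a and Ccnd1. They were chosen by name, for their place in replication and the cell cycle, from a count table of 43430 mouse genes. Earlier results of these data were known when they were chosen. All 10 had enough counts to be tested among 15300 genes. RNA with polyA tails had been sequenced from 24 mice aged about 7 weeks, 1 whole cerebellum per library. The labels give 4 genotype groups of 6 mice, each of 3 males and 3 females: 2 are controls (Cre control and NDI1 control) and 2 are knockouts (cKO and cKO+NDI1). The labels name neither the Cre driver nor the gene that was knocked out, and do not give the full set of alleles of any group. From the study itself the cKO is known as a brain knockout of Ndufs4, a subunit of mitochondrial complex I, made with Cre under a Nestin promoter, which acts in neural progenitors and so reaches neurons and glia but not, for the most part, blood vessels or microglia. NDI1 is a yeast NADH dehydrogenase that regenerates NAD+ without pumping protons. It is carried by the NDI1 control and, together with the knockout, by the cKO+NDI1 mice. The comparisons ask what the knockout changed and what NDI1 changed, with and without the knockout.

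Before a cell copies its DNA, the Mcm2 to Mcm7 proteins are loaded as a ring onto replication origins, where the ring later becomes the core of the helicase that opens the fork. Pcna is the sliding clamp that holds DNA polymerases on the template, Top2a is the topoisomerase that untangles replicated chromosomes before mitosis, and Ccnd1 (cyclin D1) drives entry into the cycle by activating the kinases that release E2F transcription factors from the retinoblastoma protein. Mki67 coats mitotic chromosomes and is the standard histological marker of cycling cells. In the mouse cerebellum the great wave of granule cell division ends in the weeks after birth, and in young adults the cells that still divide are mainly oligodendrocyte precursors and, in smaller numbers, glia, vascular cells and microglia. Several of the 10 genes are also transcribed in cells that do not divide.

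Genes that license and copy DNA are known targets of E2F, and late genes such as Mki67 and Top2a are known for CCAAT boxes and for the cell cycle homology region (CHR), which is bound by the DREAM complex in resting cells. RefSeq promoter windows (build GRCm38.p6, 250 bases before to 50 after each start) were matched for 8 of the 10 genes, all but Mcm4 and Ccnd1. Stretches of 120 bases are shown for Mcm5 and Mki67, the members called lower in cKO, and beside them for Mcm6 and Top2a, which hold the same letters. They are chr8:75109329-75109448 on the plus strand (Mcm5, bases -180 to -61 from the start), chr1:128359706-128359825 on the minus strand (Mcm6, -120 to -1), chr7:135716470-135716589 on the minus strand (Mki67, -210 to -91) and chr11:99024190-99024309 on the minus strand (Top2a, -120 to -1). Capitals mark E2F letters in Mcm5 and Mcm6, and CCAAT and CHR letters in Mki67 and Top2a, on either strand. Where matches on opposite strands overlap, as in Mcm5 and at the first position in Mcm6, they form 1 run of capitals.
Mcm5: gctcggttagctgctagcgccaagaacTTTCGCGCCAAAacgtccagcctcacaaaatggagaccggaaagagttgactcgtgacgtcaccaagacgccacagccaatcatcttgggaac
Mcm6: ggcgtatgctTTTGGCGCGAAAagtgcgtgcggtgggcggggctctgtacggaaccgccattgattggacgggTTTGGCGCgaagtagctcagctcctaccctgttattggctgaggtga
Mki67: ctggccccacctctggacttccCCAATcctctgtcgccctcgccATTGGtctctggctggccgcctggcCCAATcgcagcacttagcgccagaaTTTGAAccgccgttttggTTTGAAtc
Top2a: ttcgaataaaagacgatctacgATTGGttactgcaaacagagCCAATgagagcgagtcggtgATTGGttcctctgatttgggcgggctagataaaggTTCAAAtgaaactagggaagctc

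The E2F letters searched were TTTCCCGC, TTTCGCGC, TTTGCCGC and TTTGGCGC on both strands. They were found in 4 of the 8 matched members (Mcm3, Mcm5, Mcm6 and Mcm7) and in 2.6% of all 27025 genes with a window. In Mcm3 the matches lie after the start, at +20 and +39. The CCAAT box was found in 8 of 8 members against 41.1% of genes. The CHR letters TTTGAA were found in 3 of 8 (Mcm2, Mki67 and Top2a) against 20.2%. The letters CACGTG, searched as a motif of another kind, were found in 0 of 8 against 8.09%. Top2a carries 6 CCAAT matches in its whole window and Mki67 carries 3. These are matches of letters, not sites shown to be bound in these mice.

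Libraries held 7584374 to 19785264 counts, fewer in cKO (median 11547903) than in the Cre control (15874079), the NDI1 control (15254777.5) and cKO+NDI1 (15281035). Levels are given as CPM, counts scaled to a common total by TMM library sizes, as mean ± SD with n = 6 per group unless another n is given. Markers of the tissue were high in every library: summed over 6 genes, granule neuron markers lay between 4886 and 5529 CPM, and summed over 4 genes, Purkinje cell markers lay between 5324 and 8048 CPM. Ndufs4 had a mean of 134 ± 23.6 CPM in the Cre control, and of 95.4 ± 21.5 in cKO; with NDI1 the means were 143.7 ± 41.8 (NDI1 control) and 101 ± 15.1 (cKO+NDI1). The libraries of cKO and Cre control overlapped, and the difference did not pass the test (log2 -0.47 ± 0.16, SE; edgeR adjusted p = 0.0939). A count over the whole gene does not show a deleted part, so this does not check the labels.

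The levels of the 10 genes were compared with each other as RPKM, which divides CPM by the length of the gene model in kilobases. The order over all 24 libraries ran from Pcna (11.97 ± 1.37 RPKM, n = 24) and Ccnd1 (8.81 ± 1.01) through the Mcm genes to Top2a (0.105 ± 0.042) and Mki67 (0.055 ± 0.031). Among the Mcm genes Mcm4 was highest (4.51 ± 0.59 RPKM, n = 24), followed by Mcm5 (3.87 ± 0.66), Mcm2 (3.83 ± 0.47), Mcm7 (2.08 ± 0.20), Mcm6 (0.724 ± 0.097) and Mcm3 (0.537 ± 0.084). The deposited gene models of Mcm3, Mcm6 and Mcm7 (8685, 8324 and 10676 bases) are much longer than those of Mcm2, Mcm4 and Mcm5 (3370, 3589 and 3422 bases), and the order rests on them: in CPM, which ignores length, Mcm7 (22.2) stood above Mcm4 (16.2).

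Most neighbours in the RPKM order were separated in nearly every library. Pcna lay above Ccnd1 in 22 of 24 libraries, Ccnd1 above Mcm4, Mcm2 above Mcm7, Mcm7 above Mcm6 and Mcm3 above Top2a in 24 of 24, and Mcm6 above Mcm3 and Top2a above Mki67 in 23 of 24. Mcm5 and Mcm2 did not differ beyond their spread, with Mcm5 higher in 15 of 24 libraries, and Mcm4 lay above Mcm5 in 19 of 24. Among the 15300 genes tested, Pcna lay at the 77.1 percentile of mean RPKM and Mki67 at the 0.693 percentile, near the lowest level that could be tested.

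**Figure D1:**
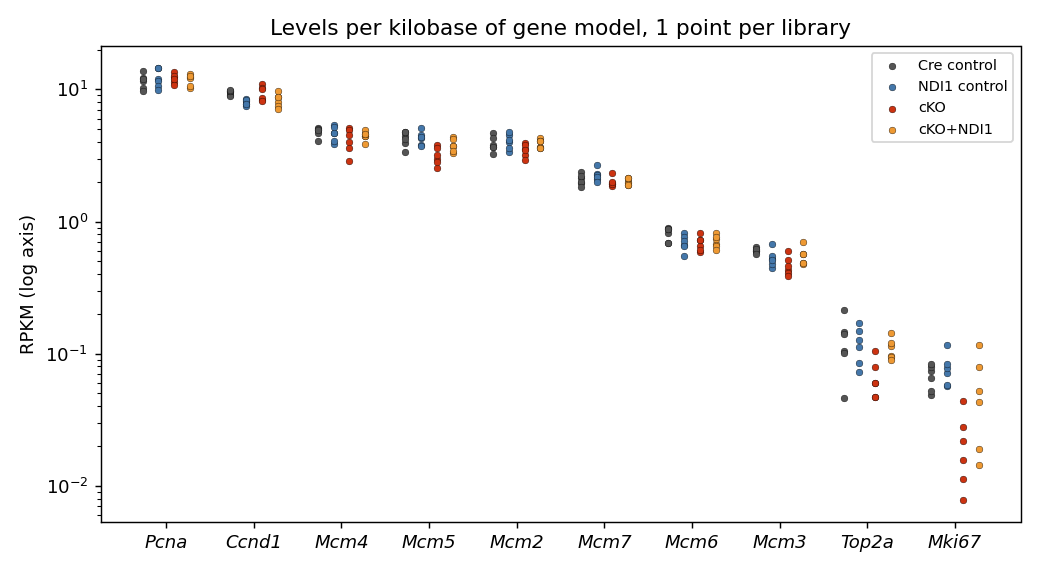
RPKM of the 10 genes on a log axis, 1 point per library, coloured by genotype group, with genes in order of their mean. Pcna and Ccnd1 lie near 10 RPKM, while Top2a and Mki67 lie lowest, and the cKO points of Mki67 sit under those of the Cre and NDI1 controls.

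In cKO against the Cre control, Mcm5 and Mki67 were called lower and no member was called higher, by edgeR's quasi-likelihood test with Benjamini-Hochberg adjustment over all genes. Mcm5, of the helicase ring, fell to 0.743 times its control level. Mki67, the marker of cycling cells, stood at 0.351 times an already low level. It reached the minimum level for testing in 0 of 6 cKO libraries and was tested only through the other groups, and without a filter on low counts its call was lost (edgeR adjusted p = 0.0578). The count of called members was therefore 2 with the filter and 1 (Mcm5) without it, and nothing is read from it against the 1.81% of all genes tested that were called lower and the 3.06% called higher (4.87% in either direction). The log2 fold change was negative for 9 of the 10, with a median of -0.21, against 51.9% negative and a median of -0.0074 over all genes tested. Without adjustment, 4 of the 10 (Mcm3, Mcm5, Mki67 and Top2a) had p under 0.05 and were lower, where 8.29% of all genes were. Both the signs and this count include Mki67, which was tested only through the other groups. Nothing is read from them against the shares of all genes either. In whole tissue, fewer cells of a type and less RNA per cell cannot be told apart.

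Mki67 (ENSMUSG00000031004, chromosome 7, 135689788 to 135716379, mm10, minus strand) was counted 8 to 14 times per Cre control library and 1 to 7 times per cKO library. Its level in the Cre control ran from 0.488 to 0.836 CPM with a median of 0.704. In the NDI1 control it ran from 0.574 to 1.17 CPM (median 0.752), in cKO from 0.0786 to 0.439 (median 0.19) and in cKO+NDI1 from 0.144 to 1.18 (median 0.483). Every cKO library lay below every library of the Cre control and of the NDI1 control, while the cKO+NDI1 libraries spread over the ranges of all other groups. It was the only 1 of the 10 genes whose cKO and Cre control libraries did not overlap. Over all genes tested, 1.07% were lower in cKO with no overlap. Mki67 was tested only through groups other than cKO, so nothing is read from its separation against that share.

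The mean of Mki67 was 0.215 ± 0.131 CPM in cKO against 0.677 ± 0.145 in the Cre control, a log2 fold change of -1.51 ± 0.43 (95% interval -2.40 to -0.62; edgeR adjusted p = 0.0408). Pooled over the 6 libraries of a group, 64 counts in the Cre control gave 0.675 CPM (exact Poisson 95% interval 0.52 to 0.862, which covers counting error only) and 16 counts in cKO gave 0.229 (0.131 to 0.372). The gene met the minimum level of 0.664 CPM for testing in 3 Cre control, 4 NDI1 control, 2 cKO+NDI1 and 0 cKO libraries, so it entered the test through the groups in which it was high. The call was also narrow: it was lost when any of 12 of the 24 libraries was left out (adjusted p = 0.0505 to 0.0986), among them each of the 6 Cre control libraries, and without a filter on low counts (adjusted p = 0.0578). After thinning to the smallest library, or with the 2 groups alone, Mki67 did not reach the minimum level.

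Mcm5 (ENSMUSG00000005410, chromosome 8, 75109528 to 75128439, plus strand) forms with Mcm2 the gate through which the ring closes on DNA. Its level ran from 11.4 to 16.3 CPM in the Cre control (median 14.85), from 12.7 to 17.6 in the NDI1 control (median 14.84), from 8.63 to 12.98 in cKO (median 10.5) and from 11.2 to 14.97 in cKO+NDI1 (median 12.8). In cKO, 4 of 6 libraries lay below the lowest Cre control library and 5 of 6 below the lowest NDI1 control library, so the groups overlapped in part. The mean fell from 14.5 ± 1.89 to 10.8 ± 1.65 CPM (log2 -0.43 ± 0.11, 95% interval -0.66 to -0.20; edgeR adjusted p = 0.0239). The call was lost without Cre control M2 (adjusted p = 0.0633), Cre control F2 (0.0602) or cKO F1 (0.0647), and where all libraries were thinned to the smallest total (0.15) or the 2 groups were fitted alone (0.0691).

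**Figure D2:**
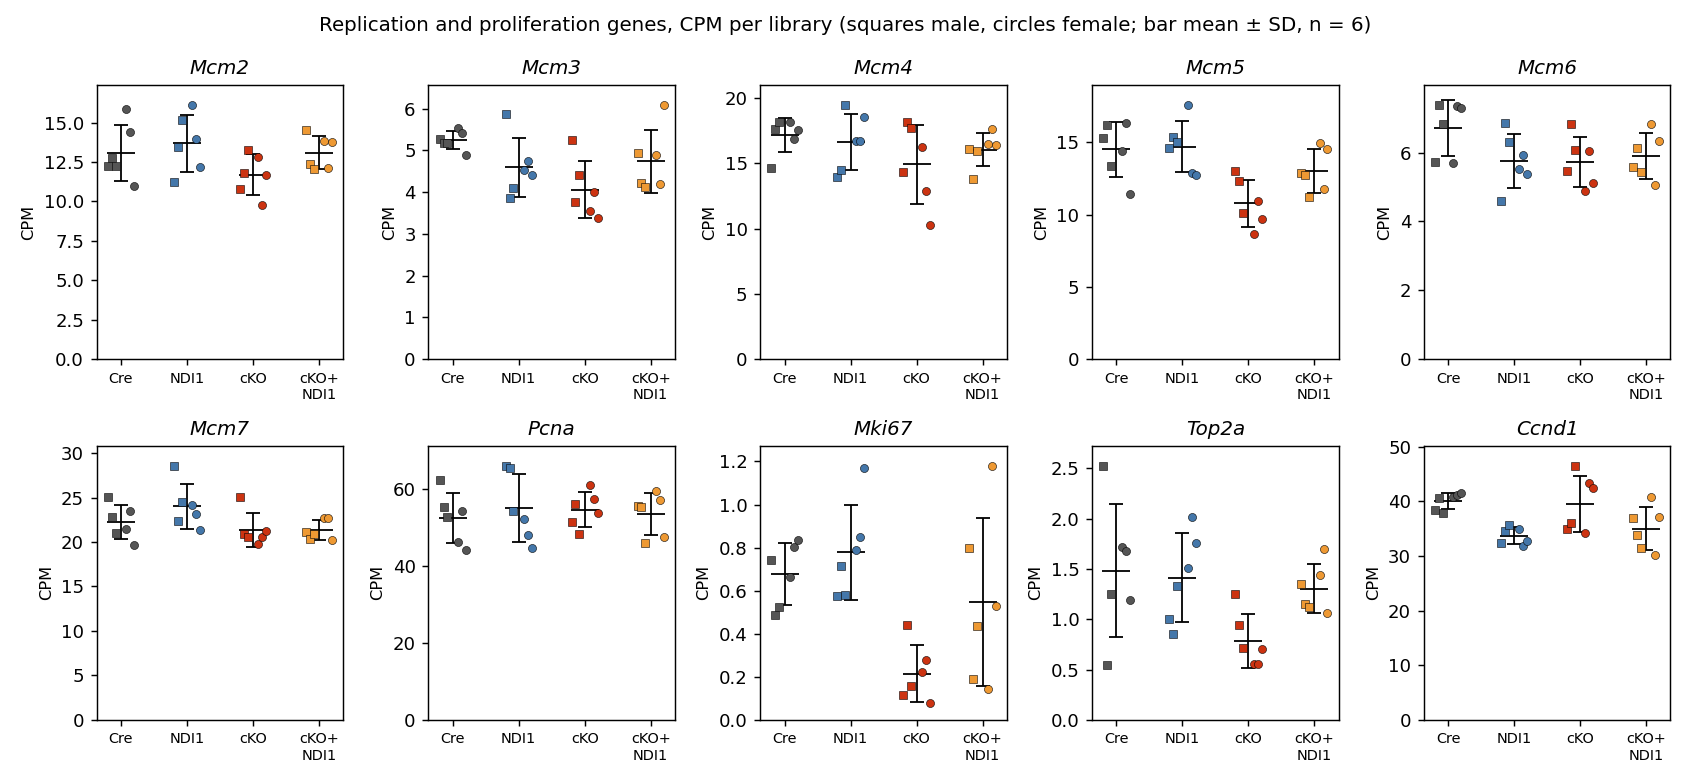
CPM of each of the 10 genes in every library, by genotype group, with squares for males, circles for females and bars for the mean ± SD of 6 libraries. All cKO points of Mki67 lie below those of the Cre and NDI1 controls, the cKO points of Mcm5 overlap the controls in part, and those of Pcna and Ccnd1 lie among them.

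Among the other ring subunits, Mcm3 was nearest to a call. Mcm3 (ENSMUSG00000041859, chromosome 1, 20802968 to 20820312, minus strand) ran from 4.90 to 5.54 CPM in the Cre control (median 5.23) and from 3.38 to 5.24 in cKO (median 3.89), and 5 of 6 cKO libraries lay below all of the Cre control. The 6 Cre control libraries were unusually close, with a coefficient of variation of 4.22%, below the 11% to 14.8% that counting alone would give in the 4 groups. The log2 fold change was -0.38 ± 0.12 (edgeR adjusted p = 0.0709), and the gene was called by DESeq2 (adjusted p = 0.0452). The NDI1 control libraries (3.86 to 5.88 CPM) and those of cKO+NDI1 (4.12 to 6.08) overlapped both cKO and the Cre control and reached above the latter. Of the cKO libraries, 3 of 6 lay below the lowest NDI1 control library.

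The rest of the ring did not pass the test. Mcm6 (chromosome 1, 128331590 to 128359664) had Cre control and cKO means of 6.71 ± 0.80 and 5.74 ± 0.73 CPM (log2 -0.22 ± 0.11, edgeR adjusted p = 0.305). Mcm4 (chromosome 16, 15623897 to 15637400) had 17.2 ± 1.33 and 14.9 ± 3.03 CPM (log2 -0.20 ± 0.11, adjusted p = 0.37), with the widest spread of any group in cKO, from 10.3 to 18.2. Mcm2 (chromosome 6, 88883475 to 88898780) had 13.1 ± 1.76 and 11.7 ± 1.28 CPM (log2 -0.16 ± 0.10, adjusted p = 0.437). Mcm7 (chromosome 5, 138164583 to 138172422) had 22.3 ± 1.95 and 21.3 ± 1.89 CPM (log2 -0.06 ± 0.07, adjusted p = 0.744). The 6 point estimates were all negative and ran from -0.43 for Mcm5 to -0.06 for Mcm7, and the Mcm7 interval of -0.22 to 0.09 leaves out a fall as large as the Mcm5 estimate. Mcm7 overlaps Cops6 on the opposite strand, which has 47249 counts over all libraries against 7660 for Mcm7, and its introns hold the small RNA genes Mir25, Mir93 and Mir106b. The strand setting of the counting is not given in the sources used here, so reads of Mcm7 and of its antisense neighbours cannot be told apart.

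Top2a (ENSMUSG00000020914, chromosome 11, 98992943 to 99024189, minus strand) was counted 9 to 34 times per Cre control library and 5 to 15 times per cKO library. Its level ran from 0.549 to 2.53 CPM in the Cre control (median 1.46), from 0.857 to 2.02 in the NDI1 control (median 1.42), from 0.554 to 1.25 in cKO (median 0.709) and from 1.06 to 1.70 in cKO+NDI1 (median 1.25). In the Cre control M2 lay lowest at 0.549 CPM, with the next library at 1.195, and the highest cKO library, M1 at 1.25, lay above 3 of the 6 Cre control libraries. The log2 fold change was -0.88 ± 0.29 (95% interval -1.48 to -0.28; edgeR adjusted p = 0.0841). It was called without Cre control M2 (log2 -1.05, adjusted p = 0.0274), by DESeq2 (adjusted p = 0.0468) and in females alone (adjusted p = 0.0399). In females the 3 cKO libraries (0.554 to 0.707 CPM) lay below the 3 Cre control libraries (1.195 to 1.72).

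Pcna and Ccnd1, the members with the highest levels, did not pass the test in cKO against the Cre control, and their intervals were narrow. Pcna (ENSMUSG00000027342, chromosome 2, 132249162 to 132253314, minus strand) stood at 54.6 ± 4.50 CPM in cKO against 52.5 ± 6.59 in the Cre control (log2 0.06 ± 0.10, 95% interval -0.14 to 0.26; edgeR adjusted p = 0.808). Ccnd1 (ENSMUSG00000070348, chromosome 7, 144929931 to 144939869, minus strand) stood at 39.5 ± 5.17 against 40.04 ± 1.503 CPM (log2 -0.02 ± 0.08, 95% interval -0.18 to 0.15; adjusted p = 0.951). The Ccnd1 libraries of cKO fell on either side of the Cre control, with 3 of 6 below its lowest and 3 of 6 above its highest. Ccnd1 overlaps LTO1 on the opposite strand, with 6649 counts against 12742 for Ccnd1, and the same limit of strand applies.

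**Figure D3:**
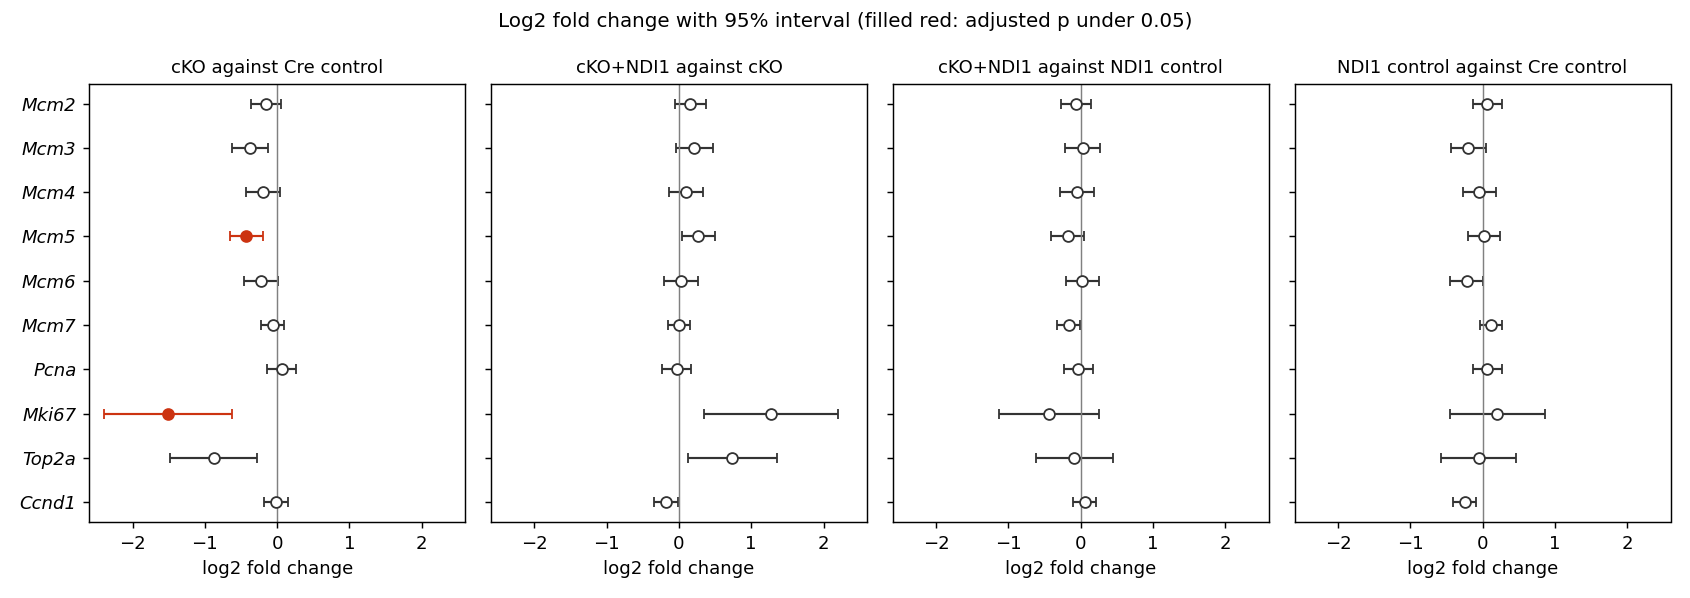
Log2 fold change (x axis) with its 95% interval for each of the 10 genes in 4 comparisons, filled red where the adjusted p was under 0.05. Only Mcm5 and Mki67 in cKO against Cre control are filled, and in cKO+NDI1 against cKO most points lie to the right of 0.

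Among knockout mice, those with NDI1 were set against those without it. In cKO+NDI1 against cKO none of the 10 genes passed edgeR's test, where 0.209% of all genes were called, and none passed with DESeq2 or limma-voom. Without adjustment 3 had p under 0.05 and were higher (Mki67, Top2a and Mcm5) and 1 was lower (Ccnd1), against 4.11% and 4.44% of all genes. The log2 fold change was positive for 8 of 10, with a median of 0.13, against 47.6% positive and a median of -0.0077 over all genes tested. Both counts include Mki67, with 0 of 6 cKO libraries at the minimum level, so nothing is read from them against these shares. Mki67 stood at 0.215 ± 0.131 CPM in cKO and 0.546 ± 0.391 in cKO+NDI1 (log2 1.28 ± 0.45, edgeR adjusted p = 0.335), and 3 of 6 cKO+NDI1 libraries lay above the highest cKO library. Top2a stood at 0.787 ± 0.268 and 1.30 ± 0.244 CPM (log2 0.74 ± 0.30, adjusted p = 0.454), and Mcm5 at 10.8 ± 1.65 and 13.01 ± 1.49 (log2 0.27 ± 0.11, adjusted p = 0.47). This comparison and the first share the cKO libraries, so their opposite signs are not independent of each other.

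Where both groups carried NDI1, in cKO+NDI1 against the NDI1 control, 0 of the 10 genes and 0% of all genes were called by edgeR. At an unadjusted p under 0.05 there was 1 member (Mcm7, lower, as were 2.07% of all genes) and there were 686 genes in all; DESeq2 called 25 genes and limma-voom 0, none of them members. Mcm7 stood at 21.3 ± 1.12 CPM in cKO+NDI1 against 24.03 ± 2.52 in the NDI1 control (log2 -0.17 ± 0.07, edgeR adjusted p = 0.998). Mcm5 had a log2 fold change of -0.18 ± 0.11 and Mki67 of -0.44 ± 0.33 (95% interval -1.13 to 0.25), an interval that is wide at this depth and includes 0. The log2 fold change was negative for 7 of 10, with a median of -0.06, against 53.1% negative and a median of -0.0086 over all genes. These signs include Mki67, which met the minimum level in only 2 cKO+NDI1 and 4 NDI1 control libraries. Nothing is read from their count against all genes.

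Whether the effect of the knockout differed with NDI1 was tested directly by the interaction. None of the 10 genes, and 0% of all genes, passed edgeR's test; at an unadjusted p under 0.05 there were 1 member (Mcm3, higher, as were 2.05% of all genes) and 792 genes in all. DESeq2 called 13 genes and limma-voom 0, none of them members. The signs that follow include Mki67, which no cKO library held at the minimum level, so nothing is read from their count against all genes. The interaction was positive for 8 of 10, that is, the log2 difference between knockout and control was higher with NDI1 than without it. Its median was 0.19, against 48.5% positive and a median of -0.0049 over all genes tested. It was 0.41 ± 0.17 for Mcm3 (unadjusted p = 0.0237, edgeR adjusted p = 0.901), 1.07 ± 0.55 for Mki67 (adjusted p = 0.977), 0.79 ± 0.39 for Top2a (adjusted p = 0.96) and 0.25 ± 0.15 for Mcm5 (adjusted p = 1). For Mcm3 and Mcm6 the NDI1 control itself stood lower than the Cre control (log2 -0.19 and -0.22, neither called), which enters their interaction. Mcm5 was called lower in the absence of NDI1 and not in its presence, but a difference between these effects was not shown. The same held for Mki67, whose call without NDI1 rested on the filter on low counts, with 0 of 6 cKO libraries at the minimum level.

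In cKO+NDI1 against the Cre control 0 of the 10 genes were called by edgeR, DESeq2 or limma-voom, where 1.25% of all genes were called by edgeR, and 1 member (Ccnd1, lower) had an unadjusted p under 0.05, against 6.47% of all genes lower at that level. The largest negative values were those of Mki67 (log2 -0.23 ± 0.34), Mcm6 (-0.20 ± 0.11) and Ccnd1 (-0.19 ± 0.08, edgeR adjusted p = 0.259). Mcm2 had a mean of 13.1 CPM in both groups.

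NDI1 alone, in the NDI1 control against the Cre control, was tested in the same way. No member was called by edgeR, DESeq2 or limma-voom, where 0.00654% of all genes (1 gene) were called by edgeR, and Ccnd1 alone had an unadjusted p under 0.05, lower, against 4.31% of all genes. Cyclin D1 RNA ran from 37.9 to 41.5 CPM in the Cre control (median 40.6) and from 31.8 to 35.7 in the NDI1 control (median 33.6). Every NDI1 control library lay below every Cre control library, which 0.196% of all genes showed in this direction. The means were 40.04 ± 1.503 and 33.7 ± 1.58 CPM (log2 -0.25 ± 0.08, unadjusted p = 0.00449), but over 15300 genes the difference did not pass (edgeR adjusted p = 0.323). With the knockout, 35.02 ± 3.98 CPM in cKO+NDI1 stood against 39.5 ± 5.17 in cKO (log2 -0.18 ± 0.08, adjusted p = 0.529), with overlapping libraries. The other 9 members had log2 values between -0.22 (Mcm6) and 0.21 (Mki67).

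The sexes were compared over the 4 genotypes, and 0 of the 10 genes differed by edgeR, DESeq2 or limma-voom, where 0.085% of all genes were called by edgeR. No member had an unadjusted p under 0.05 with edgeR, where 16.9% of all genes (2582) did. The effect of the knockout was also fitted in each sex, as a choice made after seeing the data. Mki67 had a log2 fold change of -1.11 in males and -2.00 in females, Top2a -0.57 and -1.30, and Mcm5 -0.35 and -0.52. Mcm4 had -0.00038 in males and -0.43 in females, and Pcna -0.13 and 0.25. The test of the difference between the sexes called 0 of the 15300 genes with edgeR, with 3147 at an unadjusted p under 0.05, and gave an adjusted p of 0.223 for Pcna and 0.247 for Mcm4.

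The 6 Mcm genes were set against each other over the 24 libraries, after the mean of each genotype and sex had been removed. Pearson's r over their 15 pairs ran from -0.522 (Mcm6 and Mcm7) to 0.446 (Mcm3 and Mcm7), with a median of 0.0814. The genes share the depth of each library, but counting error is separate for each gene and pulls r towards 0. The low median therefore does not show that the genes vary apart from each other. Counting error was as large as the spread between mice for several members. For Mki67 it came to a coefficient of variation of 29.0% to 64.3% in the 4 groups, against an observed 21.4% to 71.6%. For Mcm6 the figures were 9.70% to 12.4% and 11.2% to 13.6%, while for Pcna counting gave 3.45% to 4.03% and mice varied by 8.23% to 16.1%. The 5 genes of at least a mean log2 CPM of 1 with the highest r to the mean of the 6 Mcm genes, of 13243 searched, were Zbtb8a (0.808), D230025D16Rik (0.784), Gstm2 (0.766), Eif3l (0.761) and Nfyc (0.75). Those most like Ccnd1 were Aplnr (0.855), Cdc42ep1 (0.849), Stac (0.844), Cyp4f17 (0.838) and Cdc42ep4 (0.835). These r values are descriptions, the highest of many.

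Around the 10 genes, 8 lists with 134 genes of replication, the cell cycle and p53 were followed, of which 117 could be tested. In cKO against the Cre control 1 of the 117 rose (Cdkn1a) and 1 fell (E2f1), 1.71% against 4.87% of all genes, with a median log2 fold change of -0.011 and 64 negative. In the other 6 comparisons 0 of the 117 were called by edgeR. Over all genes tested in cKO against the Cre control, 51.9% were negative and 48.1% positive. The counts of signs and calls in single lists were not tested, and nothing is read from them against the shares of all genes. Of origin licensing, 0 of 11 tested genes were called and the median was 0.028; the smallest p values belonged to Gmnn, the inhibitor that keeps origins from firing again (log2 -0.30 ± 0.18), and to the origin subunit Orc5 (0.13 ± 0.09). Of helicase activation and fork protection 0 of 13 were called (median -0.07), with Cdc7, the kinase that activates the Mcm ring, at 0.24 ± 0.09 and the helicase partner Gins4 at -0.25 ± 0.14.

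Polymerases, the clamp loader and lagging strand factors had 0 of 26 called, with a median of -0.061 and 19 of 26 negative; Chtf18, of an alternative clamp loader, had a log2 value of 0.42 ± 0.15 and Pola1, the catalytic subunit of polymerase alpha, -0.35 ± 0.13. Deoxynucleotide supply had 0 of 10 called, with 9 of 10 negative and a median of -0.123, where 51.9% of all genes were negative. Umps had -0.16 ± 0.06 and Rrm2b -0.19 ± 0.08. Of 19 tested genes of mitosis 0 were called and 12 were negative, with a median of -0.107; the spindle factor Tpx2 had -0.58 ± 0.21 (edgeR adjusted p = 0.106) and the checkpoint kinase Bub1b 0.59 ± 0.22 (adjusted p = 0.118). A further 17 list genes were too low to be tested, among them Ccnb1, Aurkb, Plk1, Birc5, Mcm10, Tk1 and E2f8. Pooled over libraries, 13 of these 17 were lower in cKO than in the Cre control and 0 were called when no filter was used; E2f8, a repressor of the E2F family, had 0.264 and 0.0858 CPM (log2 -1.54, adjusted p = 0.327).

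Among the Rb and E2F proteins 1 of 12 was called, where 4.87% of all genes were called in either direction. E2f1, the activator that drives replication genes, ran from 3.15 to 4.42 CPM in the Cre control and from 1.96 to 3.14 in cKO. These libraries did not overlap, by a narrow gap (3.143 and 3.15 CPM). Over all genes tested, 1.07% were lower in cKO with no overlap. The NDI1 control ran from 2.498 to 4.692 CPM, and 3 of 6 cKO libraries lay below its lowest. The mean of E2f1 fell from 3.77 ± 0.52 CPM in the Cre control to 2.45 ± 0.43 in cKO (log2 -0.60 ± 0.15, edgeR adjusted p = 0.0192). In cKO+NDI1 it stood at 2.61 ± 0.50 (log2 against the Cre control -0.54 ± 0.14, adjusted p = 0.0633). The call of E2f1 was lost without cKO F1 (adjusted p = 0.0516) or cKO F2 (0.0518), in a fit of the 2 groups alone (0.0581) and after thinning (0.305). Of 12 genes of G1 cyclins, kinases and inhibitors 10 were positive, with a median of 0.117, where 48.1% of all genes were positive. Of these 12, 1 rose, where 3.06% of all genes were called higher: Cdkn1a, the p53 target p21 that inhibits cyclin-dependent kinases and binds Pcna. It ran from 21.8 to 32.8 CPM in the Cre control and from 32.7 to 106 in cKO, where F1 lay apart at 106 and the others between 32.7 and 44.4.

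Cdkn1a rose from 26.8 ± 3.69 to 48.1 ± 28.7 CPM (log2 0.81 ± 0.20, edgeR adjusted p = 0.0178). The call held whichever of the 24 libraries was left out, with a log2 fold change of 0.46 without cKO F1, but not with no filter (adjusted p = 0.0635) or in a fit of the 2 groups alone (0.093). Cdkn2b, also an inhibitor of G1 kinases, went the other way (log2 -0.73 ± 0.27, adjusted p = 0.127). Of 15 p53 targets Cdkn1a was the 1 called, 8 were positive and the median was 0.017; next by p was Phlda3 (0.33 ± 0.14, adjusted p = 0.199).

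**Figure D4:**
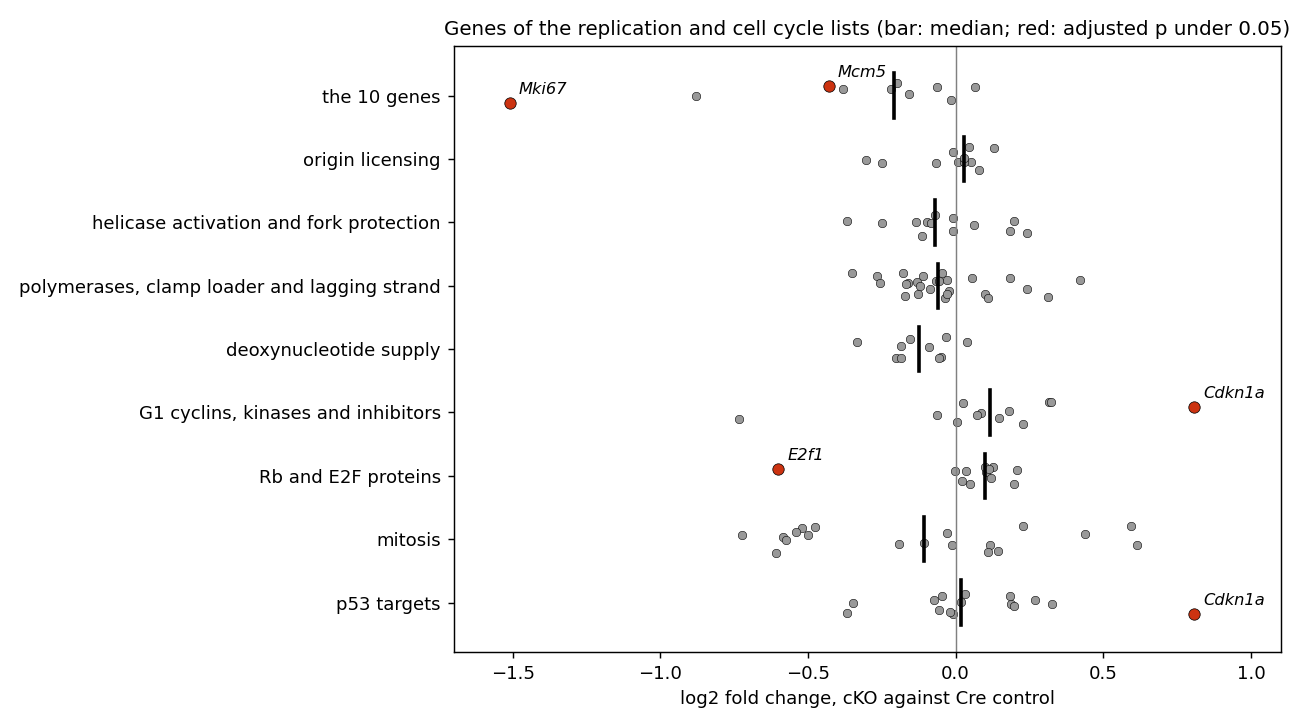
Log2 fold change in cKO against Cre control (x axis) of each tested gene in the 10 genes and the 8 lists around them, with a bar at each median and red points where the adjusted p was under 0.05. Mki67 and Mcm5 lie left of 0 among the 10 genes, E2f1 is the red point of the Rb and E2F list, and Cdkn1a stands at 0.81 in the 2 lists that hold it.

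Cell types that divide in the adult cerebellum, or could bring RNA of other cells, were followed by 10 lists of marker genes. Of 7 markers of oligodendrocyte precursors 5 were negative and 2 positive in cKO against the Cre control, and 0 were called. Their summed level was 201.8 to 330.1 CPM in cKO against 265.2 to 299.2 in the Cre control. Pdgfra, the receptor that marks these cells, had a log2 of -0.28 ± 0.11 (edgeR adjusted p = 0.143). For cKO+NDI1 against the Cre control 7 of 7 were negative, as were 7 of 7 for NDI1 control against Cre control, with 0 called. Mean sums were 230.6 ± 18.9 CPM (cKO+NDI1), 244.9 ± 37.0 (NDI1 control), 260.6 ± 46.8 (cKO) and 284.1 ± 13.3 (Cre control). Lower precursor markers were therefore not particular to cKO. Markers of granule cell precursors had 0 of 5 called, and Atoh1, which defines them, was too low to be tested; Ccnd2 belongs to this list and to the G1 list. Markers of Bergmann glia and astrocytes were negative in 7 of 7, where 51.9% of all genes tested were negative. Their summed levels were 3095 to 3399 CPM in cKO against 3684 to 4056 in the Cre control. Of these 2 fell: Slc1a3, the glutamate transporter of astroglia (2112 ± 93.2 to 1743 ± 85.7 CPM, log2 -0.28 ± 0.05, adjusted p = 0.00262), and Fabp7 of Bergmann glia (log2 -0.97 ± 0.18, adjusted p = 0.00211). Over all genes tested 1.81% were called lower. Slc1a3 was also called lower in cKO+NDI1 against the Cre control.

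Endothelial markers were positive in 8 of 9, where 48.1% of all genes tested were positive. Their summed levels were 259.9 to 348.4 CPM in cKO against 237.1 to 274.2 in the Cre control. Of the 9, Pecam1, an adhesion molecule of vessels, rose (log2 0.76 ± 0.09, edgeR adjusted p = 0.000151), where 3.06% of all genes were called higher. Pecam1 was also called higher in cKO+NDI1 against the Cre control. Microglia (5 of 6 negative), granule neurons (3 of 6), Purkinje cells (3 of 4), meningeal fibroblasts (1 of 5), choroid plexus (0 of 5) and red blood cells (5 of 5) had 0 markers called. The summed choroid plexus markers ran from 1086 to 4146 CPM over the Cre control and cKO libraries, and those of red blood cells from 206 to 638.9 CPM. The part of these shifts, and of the lower depth of cKO, in the lower levels of Mki67 and Mcm5 was not tested.

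**Figure D5:**
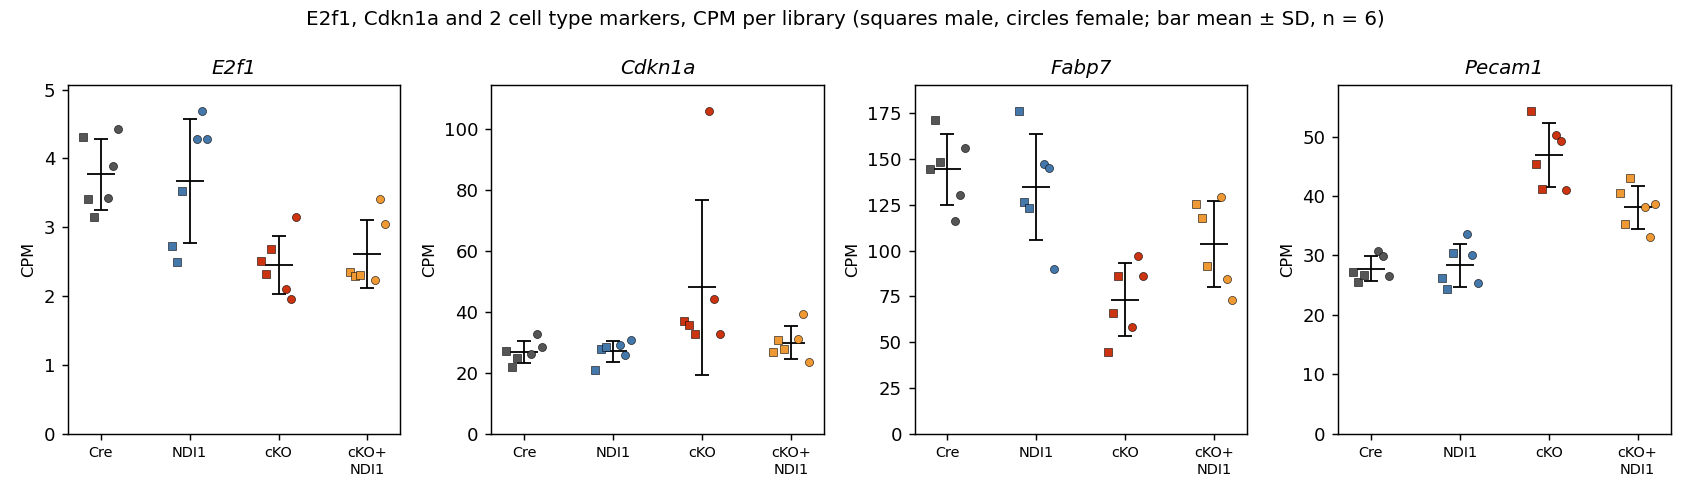
CPM per library of E2f1, Cdkn1a, Fabp7 and Pecam1 by genotype group, with squares for males, circles for females and bars for the mean ± SD of 6 libraries. The cKO libraries of E2f1 and Fabp7 lie below those of the Cre control, those of Pecam1 lie above, and 1 cKO library of Cdkn1a stands apart at 106 CPM.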

How the data were processed

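The authors deposited 1 table of read counts, whole numbers that were not normalised. It also gives gene coordinates and a gene model length in bases, per the file headers. The submitters' processing notes name build mm10 and the tools HTSeq, STAR, Trimmomatic and bcl2fastq; versions, annotation release and strand setting are not given in the sources used here. Symbols were matched to 42462 of 43430 Ensembl identifiers. The labels give group, sex and replicate number. No library was a copy of another within its group (60 pairs; chi-square over degrees of freedom at least 4.4), and Y-linked genes matched every labelled sex. No per-library columns were left unused (0).

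Counts were filtered with filterByExpr by group (minimum count 10), scaled by TMM over the genes kept, and fitted with edgeR 4.0.16 (robust quasi-likelihood, limma 3.58.1, R 4.3.3) in 1 model of 24 libraries with terms for genotype and sex. Benjamini-Hochberg adjustment covered all 15300 genes in each of 7 comparisons (threshold 0.05). SEs and 95% intervals were derived from F statistics. RPKM divides CPM by the deposited length in kilobases. Logs of CPM for correlations used a prior count of 2. Alternatives were RLE factors, library size alone, DESeq2 1.42.0, limma-voom, no filter, thinning to the smallest library, only the groups compared, a replicate block, each library left out, and, added after seeing the data, each sex alone. The scripts were tested on simulated counts.

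The members and lists were chosen with earlier results of these data known. Named genes are the 10 members, list genes called in any comparison, the 2 smallest p of each list in cKO against Cre control, marker genes, and the 5 genes most alike to the Mcm mean and to Ccnd1. E2f8, the other untested list genes and Cops6 and LTO1 were named after their values were seen. Proteins were not analysed here.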

Additional observations from a re-analysis of the deposited data

Results flagged for a closer look

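In 40 groups of 6 libraries (10 genes in 4 genotypes), 2 held a library whose gap to the nearest other exceeded Dixon's 95% limit for its share of the group's range; chance alone gives about 1 in 20. Mcm4 was low in Cre control M1, at 14.63 CPM, with the next library at 16.88 (gap 0.634 of the range). Mcm7 was high in cKO M1, at 25.06 CPM, with the next library at 21.21 (gap 0.733 of the range). Neither gene was called in any comparison.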

How the results depend on the processing

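In cKO against Cre control 2 members were called; the count was 4 with DESeq2 (Mcm3, Mcm5, Mki67 and Top2a), 1 with no filter (Mcm5), 0 after thinning, 0 with only the groups compared, 0 in males only, 1 in females only (Top2a), and from 0 to 3 with 1 library left out. It was 2 with RLE factors, library size alone, limma-voom and the replicate block. Libraries of different groups with the same number had a median r of 0.11 (36 pairs, -0.402 to 0.506, 19 over 0.1) against -0.0397 for other numbers (72 pairs, 22 over 0.1), and 11 of 24 libraries correlated best with their own number. The count to be expected with unrelated numbers was not worked out, so nothing is read from the 11 of 24. The medians lean towards some sharing, as a hint from the data and not the design, and the pairs share libraries. Since not every pair was over 0.1, the numbers were not taken to pair the mice. With the replicate block 472 genes were higher and 282 lower, against 468 and 277 without. Genes called higher and lower in all numbered 656 and 501 with DESeq2, 285 and 140 with no filter, 242 and 128 after thinning, 191 and 72 with only the groups compared, 198 and 166 in females only, and 21 and 17 in males only. In the other 6 comparisons no member was called under any alternative run (0 of 1883 values). The sex comparison could not be fitted with the block, and a fit of only the groups compared was not run for the interaction and the sexes.

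Signs changed only for values not past the threshold, and the cause was not tested. Top2a in NDI1 control against Cre control was 0.046 with limma-voom, and Pcna in cKO against Cre control -0.13 in males only. After thinning, Mcm6 in cKO+NDI1 against cKO was -0.012, Mcm2 and Mcm3 in cKO+NDI1 against NDI1 control were 0.025 and -0.11, Mcm4 was 0.022 in cKO+NDI1 and 0.025 in NDI1 control, each against Cre control, and -0.055 in male against female, and the Mcm7 interaction was 0.027.

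With 1 library left out at a time, log2 values crossed 0 for 18 results. In cKO against Cre control Ccnd1 ran from -0.0763 to 0.0256. Against cKO, the cKO+NDI1 values of Mcm6 ran from -0.0269 to 0.0851, of Mcm7 from -0.0188 to 0.0527 and of Pcna from -0.0702 to 0.0276. Against NDI1 control they ran from -0.0395 to 0.114 for Mcm3, -0.104 to 0.00263 for Mcm4, -0.0385 to 0.0779 for Mcm6, -0.0789 to 0.0218 for Pcna and -0.184 to 0.0236 for Top2a. Against Cre control they ran from -0.0477 to 0.067 for Mcm2, -0.00572 to 0.0876 for Pcna, -0.586 to 0.0103 for Mki67 and -0.314 to 0.113 for Top2a. For NDI1 control against Cre control the ranges were -0.1004 to 0.0051 for Mcm4, -0.0488 to 0.0673 for Mcm5 and -0.222 to 0.187 for Top2a. Between males and females they were -0.0321 to 0.0578 for Mcm3 and -0.049 to 0.0264 for Mcm4.

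Depth limits Mki67 and Top2a most, with 1 to 18 and 5 to 34 counts per library.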
